A study of Mus musculus with 18 samples.

Results

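A set of 7 neurotrophin receptor and Schwann cell genes was examined in perigonadal white adipose tissue, namely *Ngfr*, *Ntrk2*, *Ntrk3*, *Mbp*, *Sox10*, *S100b* and *Cdh19*. They were chosen by name, for what their products do, with earlier results of these data known, and were found by gene symbol. All 7 were among the 16272 genes in the table of every tested gene. The tissue came from 18 young adult female wild-type mice of the strain labelled C57b/6J, each the source of 1 library. There were 6 mice in each of 3 groups. ABA mice (activity-based anorexia) had a running wheel and scheduled feeding and were sacrificed once they had lost a fixed share of their body weight. WR mice (weight restored) went through the same weight loss and then fed freely until their weight had returned. CON mice (control) had the wheel and free access to food throughout, and each was sacrificed when its yoked ABA mouse was. All groups therefore shared single housing with a running wheel, which limits CON as a model of a sedentary mouse.

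The value analysed for each gene was its average log2 CPM, the mean over all 18 libraries of the log2 of its CPM, which is its read count scaled to a common library size. It is 1 number per gene across ABA, WR and CON together. It has no error, because no value per mouse was used, and differences between the groups were not analysed here. Since the tissue was sequenced in bulk, fewer cells of a type and less RNA per cell cannot be told apart. An average of log2 values is also pulled down by libraries in which a gene is low.

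Neurotrophins are growth factors that neurons and their supporting cells depend on. They signal through the Trk receptor tyrosine kinases, each with preferred ligands, and through the p75 receptor, which binds every neurotrophin and can act with or against the Trk receptors. Schwann cells are the glia of peripheral nerves: some wrap axons in myelin and others hold bundles of thin axons without it. White adipose tissue is supplied by sympathetic and sensory fibres, and their Schwann cells run through it with the vessels. Several of the genes here are also known from other cells, such as pericytes, fibroblasts and, for *S100b*, adipocytes.

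The defining markers of the labelled tissue were present. All 12 adipocyte markers sought were listed, and their median level was 10.67 log2 CPM per kilobase of coding sequence, a scale on which the median gene stood at 3.81. Among them the fatty acid carrier gene *Fabp4* reached 13.70, the lipoprotein lipase gene *Lpl* 12.31, the lipid droplet gene *Cidec* 11.49 and the triglyceride lipase gene *Pnpla2* 10.80 log2 CPM per coding kilobase.

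Of the 3 receptor genes, *Ntrk2* had by far the highest level. *Ntrk2* (ENSMUSG00000055254) encodes TrkB, the receptor of brain-derived neurotrophic factor and neurotrophin-4, and lies on chromosome 13 of GRCm38 from 58806569 to 59133970 on the plus strand. It averaged 7.53 log2 CPM, equal to 184 CPM on a geometric scale, and 666 of the 16272 genes had a higher share of the reads. Its level per coding kilobase was 6.23 on the log2 scale, above 88.1% of the 13546 genes with a coding length. *Ntrk3* (ENSMUSG00000059146, chromosome 7 from 78175959 to 78738012, minus strand) encodes TrkC, the receptor of neurotrophin-3. It averaged 3.98 log2 CPM, or 2.60 log2 CPM per coding kilobase, which placed it above 29.4% of genes on that scale. Per coding kilobase *Ntrk2* was thus 12.3-fold higher than *Ntrk3*, and per kilobase of the longest transcript it was 26.4-fold higher. *Ngfr* (ENSMUSG00000000120, chromosome 11 from 95568818 to 95587735, minus strand) encodes the p75 receptor, and it averaged 2.81 log2 CPM. Its 2.45 log2 CPM per coding kilobase stood above 27.4% of genes, a 13.7-fold lower level than that of *Ntrk2* (10.4-fold per kilobase of the longest transcript). *Ngfr* and *Ntrk3* were 0.15 apart on the log2 scale per coding kilobase. With no spread between mice at hand, whether such near neighbours differ cannot be said.

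**Figure D1:**
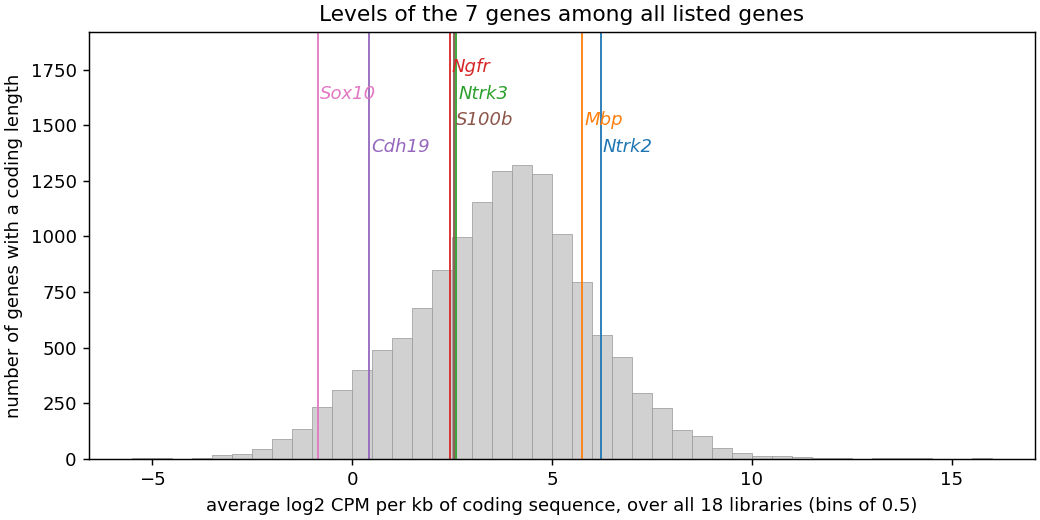
Histogram of the average log2 CPM per kilobase of longest coding sequence (x axis, bins of 0.5) over the 13546 genes with a coding length (y axis, number of genes), with a vertical line at each of the 7 genes. *Ntrk2* (6.23) and *Mbp* (5.76) lie to the right of the median of 3.81, and the other 5 genes lie to the left, down to *Sox10* at -0.84.

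Values per gene do not separate the forms of a receptor. In GENCODE M21 the *Ntrk2* gene spans 327 kilobases and has 7 coding transcripts, whose coding lengths run from 1398 to 2463 bases. *Ntrk3* spans 562 kilobases, with 6 coding transcripts and coding lengths of 248 to 2592 bases. Both genes are known to make receptors without the kinase domain beside the full ones, and the average log2 CPM counts them together. *Ngfr* has 1 annotated transcript, with a coding length of 1281 bases.

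Among the myelin genes, *Mbp* stood above most others that were listed. *Mbp* (ENSMUSG00000041607, chromosome 18 from 82475146 to 82585637, plus strand) encodes myelin basic protein, which compacts the myelin sheath. The same gene also makes the longer Golli proteins, which are known from immune and other cells. It averaged 5.34 log2 CPM (40.6 CPM on a geometric scale). Its 5.76 log2 CPM per coding kilobase was higher than 83.3% of genes and 0.47 below *Ntrk2* on the log2 scale. Its 14 coding transcripts had coding lengths from 165 to 750 bases, while its longest transcript has 4797 bases, so that the length used for scaling weighs on this value. Per kilobase of the longest transcript *Mbp* stood at 3.08 on the log2 scale, 1.32 below *Ntrk2*. That was above 65.9% of all genes with an annotated transcript. Of 13 myelin genes sought, 7 were listed, with a median of 2.38 log2 CPM per coding kilobase, and 2 of the 7 were above the median gene. The other gene above it was *Pmp22* (8.15), which encodes a peripheral myelin protein and is also known from fibroblasts and endothelial cells. *Cnp*, a phosphodiesterase of myelinating glia, reached 3.27 log2 CPM per coding kilobase. *Mag*, *Pmp2*, *Gjb1*, *Ncmap*, *Fa2h* and *Cldn19* were sought but were not among the tested genes.

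*Sox10*, a transcription factor of the Schwann cell lineage, had the lowest level of the 7 genes. *Sox10* (ENSMUSG00000033006) lies on chromosome 15 from 79154908 to 79165240 on the minus strand. It averaged -0.36 log2 CPM, which is 0.778 CPM on a geometric scale. An average below 0 log2 CPM, that is below 1 CPM, was found in 758 of the 16272 genes (4.66%). Per coding kilobase its level was -0.84 on the log2 scale, above 2.66% of genes and 134-fold lower than that of *Ntrk2* (75.3-fold per kilobase of the longest transcript). A gene with so few reads carries more counting error than one with many. The share of genes below *Sox10* also leaves out those that the authors removed for low counts. Of 9 Schwann cell transcription factors sought, 4 were listed. *Egr2*, which switches on myelin genes, stood at 1.39 log2 CPM per coding kilobase, and *Nfatc4*, a calcium-responsive factor, at 2.09. Only *Zeb2* among the 4 exceeded the median gene, at 6.89, and *Zeb2* is widely known from macrophages and other cells outside the nerve. *Pou3f1*, *Pou3f2*, *Foxd3*, *Tfap2a* and *Sox2* were sought but were not among the tested genes.

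The remaining markers, *S100b* and *Cdh19*, were low in reads. *Cdh19* (ENSMUSG00000047216, chromosome 1 from 110888326 to 110977584, minus strand) encodes a cadherin of Schwann cells and their precursors. It averaged 1.63 log2 CPM, or 0.43 log2 CPM per coding kilobase, above 8.83% of genes. *S100b* (ENSMUSG00000033208, chromosome 10 from 76253853 to 76261159, plus strand) encodes a small calcium-binding protein. It averaged 0.69 log2 CPM (1.61 CPM on a geometric scale), a smaller share of the reads than *Cdh19* had. Its coding sequence is only 276 bases long, against 2310 bases for *Cdh19*. Per coding kilobase *S100b* stood at 2.55 on the log2 scale, 4.35-fold higher than *Cdh19*, and beside *Ntrk3* and *Ngfr*. Per kilobase of the longest transcript, which is 1484 bases for *S100b*, it was 1.37-fold higher than *Cdh19*.

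Of 18 general and non-myelinating Schwann cell markers sought, which include *S100b*, *Cdh19* and *Sox10*, 15 were listed. Their median was 1.74 log2 CPM per coding kilobase, and 5 exceeded the median gene. *Art3* (6.79), *Cryab* (6.57), *Scn7a* (5.85) and *Matn2* (4.20) were among those 5, and the fifth was *Sorbs2* (4.01). *Cryab*, a small heat shock protein, and *Sorbs2*, an adaptor of the cytoskeleton, are also known from muscle. Which cells carried the transcripts of these 5 genes was not tested. The neuregulin receptor gene *Erbb3*, on which Schwann cells depend, stood at 0.89 on that scale, and *Lgi4*, a secreted factor needed for myelination, at 1.74. *Gfra3*, *Gfap* and *Cmtm5* were sought but were not among the tested genes.

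**Figure D2:**
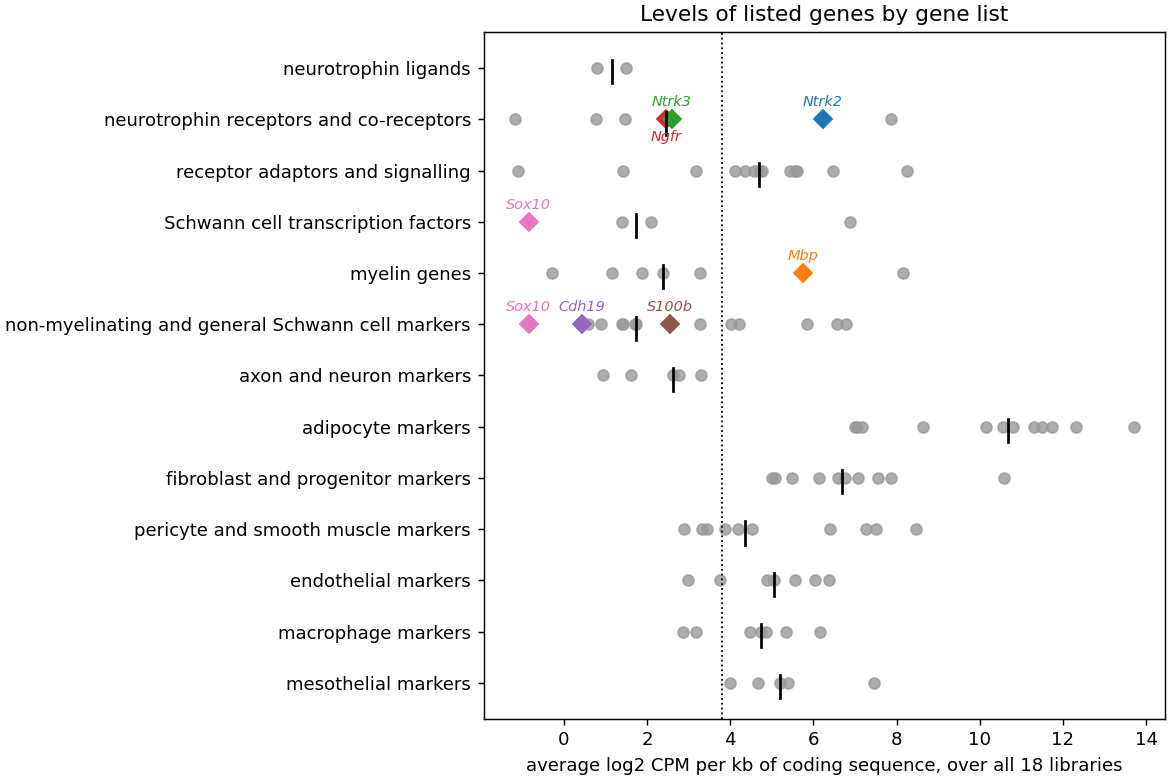
Average log2 CPM per kilobase of longest coding sequence (x axis) of each listed gene, by gene list (rows). Grey circles are genes outside the 7, coloured diamonds are the 7 genes, short black lines are list medians, and the dotted line is the median gene at 3.81. Adipocyte markers lie farthest to the right, and most Schwann cell, myelin and axon genes lie left of the dotted line.

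Of the ligands, *Ntf3*, the neurotrophin-3 gene, averaged 0.51 log2 CPM, or 0.80 log2 CPM per coding kilobase. *Bdnf* and *Ntf5* were sought but were not among the tested genes, from which the authors had removed genes with low counts. Of 9 receptors and co-receptors, 7 were listed. *Sort1*, which encodes sortilin, a partner of p75 that binds the precursors of neurotrophins and also sorts proteins in adipocytes, had the highest level, 7.87 log2 CPM per coding kilobase. *Sort1* and *Ntrk2* were the only 2 of the 7 above the median gene. *Nradd*, a relative of p75, stood at 1.47, *Sorcs2* at 0.78 and *Sorcs1* at -1.19 log2 CPM per coding kilobase, the sortilin relatives being the lowest of the list. *Sorcs3* was sought but was not among the tested genes. Of 15 adaptors and signalling genes downstream, 13 were listed and 10 exceeded the median gene. *Arhgdia*, a GDP-dissociation inhibitor of small GTPases that p75 can bind, stood at 8.24, and *Maged1*, another partner of p75, at 6.46. *Kidins220*, a scaffold of Trk receptors, reached 4.68 and *Plcg1*, a phospholipase that activated Trk receptors recruit, 4.77 log2 CPM per coding kilobase. These proteins serve many other receptors as well. *Shc3* and *Rtn4r* were sought but were not among the tested genes.

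Markers of axons and neurons were low. Most of the cell bodies that supply the nerve fibres are known to lie outside the tissue. Whether this bears on the levels was not tested. Of 20 axon and neuron markers, 5 were listed, and none of the 5 exceeded the median gene. *Stmn2*, a regulator of microtubules, stood at 3.29, the synaptic vesicle gene *Syp* at 2.78, the ubiquitin hydrolase gene *Uchl1* at 2.63 and the vesicular monoamine transporter gene *Slc18a2*, which mast cells also use, at 1.60 log2 CPM per coding kilobase. *Th*, *Dbh*, *Nefl*, *Nefm*, *Nefh*, *Prph*, *Tubb3*, *Gap43*, *Elavl4*, *Rbfox3*, *Npy*, *Ddc*, *Calca* and *Tac1* were sought but were not among the tested genes.

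Each list of markers of other cells in the tissue had a higher median than the lists of Schwann cell and myelin genes. All 10 fibroblast and progenitor markers were above the median gene, with a median of 6.68 log2 CPM per coding kilobase, among them the matrix genes *Dcn* (10.58), *Col3a1* (7.56) and *Col1a1* (6.13) and the surface marker *Cd34* (7.08). Of 10 pericyte and smooth muscle markers, 7 were above it, with a list median of 4.36 and *Rgs5*, a pericyte marker that regulates G protein signalling, at 8.48. The medians were 5.06 for 7 endothelial, 4.74 for 7 macrophage and 5.21 for 5 mesothelial markers on the same scale. *Ntrk2*, at 6.23, lay within the ranges of the fibroblast (5.01 to 10.58), pericyte and smooth muscle (2.90 to 8.48), endothelial (2.98 to 6.37) and mesothelial (3.998 to 7.45) lists, and just above that of the macrophage list (2.86 to 6.15). *Mbp*, at 5.76, lay within all 5 of these ranges. The ranges were taken per coding kilobase alone. They were not compared per kilobase of the longest transcript, a scale on which *Mbp* was lower, at 3.08. Which cells carried these transcripts was not tested.

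The order of the 7 genes depended on the length used. With the longest annotated transcript in place of the coding sequence, *Ntrk2* (4.40), *Mbp* (3.08) and *Sox10* (-1.84 log2 CPM per transcript kilobase) kept the first, the second and the last place. *Ntrk3* moved from the third to the fifth place, because its longest transcript has 19703 bases, while *Ngfr* moved up to the third. Between these 2 receptors the direction turned: *Ntrk3* minus *Ngfr* was 0.15 per coding kilobase and -1.34 per transcript kilobase on the log2 scale. *S100b* kept the fourth place and *Cdh19* the sixth.

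**Figure D3:**
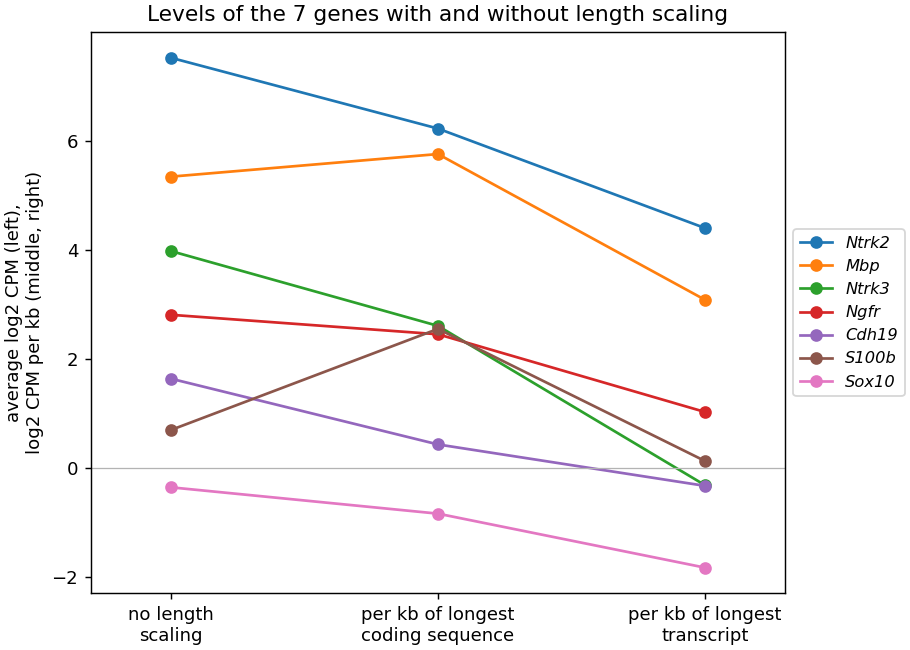
Average log2 CPM of the 7 genes without length scaling (left), per kilobase of longest coding sequence (middle) and per kilobase of longest annotated transcript (right); lines join the values of 1 gene. *Ntrk2*, *Mbp* and *Sox10* keep their places, while *S100b*, *Ngfr*, *Ntrk3* and *Cdh19* change order between the scales.

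Other annotated genes overlapped 5 of the 7 loci, and none overlapped *Ngfr* or *Sox10*. *S100b* shares 1731 bases of its locus with *Dip2a*, a protein-coding gene on the opposite strand that averaged 5.10 log2 CPM, against 0.69 for *S100b*. No exon base of *S100b* lies in a *Dip2a* exon, and none of the other overlapping genes shared an exon base with the gene it overlapped. None of the other overlapping genes, of *Ntrk2*, *Ntrk3*, *Mbp* and *Cdh19*, was among the tested genes.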

How the data were processed

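Bulk RNA seq of perigonadal white adipose tissue was taken from 18 mice (6 each of ABA, WR and CON). Reads were checked with FastQC 0.11.8, trimmed with Trimmomatic 0.38, aligned to GRCm38.p6 with STAR 2.5.1a and counted with RSEM 1.3.0, per the submitters' processing notes. The authors then removed genes with low counts, applied TMM scaling and used limma-voom, modelling condition alone. The deposited tables give, per gene, the average log2 CPM over all libraries. They also hold the authors' own comparisons (log2 fold change, moderated t, p and adjusted p), which were not used. No counts or values per mouse were used, so no test, error, depth per library or block was computed.

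Levels were scaled by the longest coding sequence in GENCODE M21 (GRCm38). Ensembl identifiers matched this annotation for 16255 of 16272 genes, and the 13546 genes with a coding length could be scaled. Coding lengths came from this annotation in place of the planned RefSeq proteins. The percentile step was tested on simulated data (Python 3.11.15, pandas 2.3.3). The average was identical in the 3 tables that give it. The members and lists were chosen with earlier results of these data known. Genes named are the 7 members and up to 4 genes of each list with the highest average log2 CPM. Also named are genes of each list that were not among the tested genes, and further list genes chosen after their values were seen. A few of these genes are left out and not reported here. The strand setting of the counting is not given in the sources used here.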

Additional observations from a re-analysis of the deposited data

How the results depend on the processing

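Of the 7 genes, 3 were above the median of all listed genes in average log2 CPM, 2 were above the median of protein-coding genes, and 2 were above it per coding kilobase. Ranked among protein-coding genes alone, *Ngfr* stood above 26.1% of genes in average log2 CPM, compared with 36.1% among all listed genes, *Ntrk3* above 43.6% compared with 52.2%, and *Ntrk2* above 95.2% compared with 95.9%. Matching older symbols and synonyms changed none of the 14 counts of listed genes. Leaving out single libraries, other pseudocounts and group tests were not run, since no values per mouse were used, and no paired analysis was possible because of the same limit. An average of log2 CPM hides any spread between mice, and counting error weighs most on *Sox10* and *S100b*, which had the lowest average log2 CPM of the 7.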
